A study of Saccharomyces cerevisiae with 42 samples.

Results

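The genes described here encode the proteins of the cytosolic ribosome of Saccharomyces cerevisiae, most of them as A and B paralogues. They were chosen by name, as open reading frames whose standard gene name is RPL or RPS followed by a digit, or is RPP0, RPP1A, RPP1B, RPP2A or RPP2B. Names came from the RefSeq gene table, and probes for introns were not used. The rule gave 137 genes out of 6278 open reading frames on the array, of which 76 encode proteins of the large subunit, 56 of the small subunit and 5 of the stalk. There are 59 pairs of A and B genes and 19 genes with a single copy. Of the 137 genes, 136 had a row in the tables, and RPS16A was not analysed here. A value in all 18 columns of levels was present for 106 of them (63 large subunit, 40 small subunit, 3 stalk), which include both members of 39 pairs. The 30 others on the array were described from fewer values, since 28 of them had no value in biological replicate 1.

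Ribosomal protein genes are among the most strongly transcribed genes of a growing yeast cell, and their transcripts are known to drop together when growth slows or stress begins. Their promoters are bound by Rap1 and Fhl1, and the coactivator Ifh1 and the zinc-finger protein Sfp1 tie them to the TOR and protein kinase A pathways. Most were retained as pairs after a whole-genome duplication, and the proteins of a pair are identical or nearly so. A and B genes differ mainly in introns, untranslated regions and promoters, and a cell can draw the same subunit from either copy.

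The series compared a strain without HOG1 (hog1del), a strain whose Hog1 carries a CCAAX sequence at its end (HOG1-CCAAX) and a strain with a GFP-tagged Hog1 (HOG1-GFP). Hog1 is the stress-activated kinase of the high-osmolarity glycerol pathway, and CCAAX is a signal for attachment of a lipid that holds a protein at membranes. Each strain was grown at 25 °C and sampled after 60 min in 1 M sorbitol and at 0 min, before the sorbitol, in 3 biological replicates, which makes 6 groups. HOG1-GFP is a tagged strain, and no untagged strain, strain background or number of clones is given in the sources used here. No culture was kept for 60 min without sorbitol, so the effects of the shock, of time and of handling cannot be told apart. Each value is a log2 ratio of a sample to a common reference pool, so a level of a probe can be compared between samples but not with that of another probe. Subtracting the 0 min level of a strain and replicate from its 60 min level gives the response. Since RNA came from whole cultures, a loss in some cells and a smaller loss in all cells cannot be told apart.

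HOG1 itself, read as a check of the labels, was between −3.97 and −3.03 in the 6 hog1del columns, against −0.34 to 0.60 in the 12 columns of the other strains. Between 5877 and 6143 open reading frames had a value in a given column. Replicate 1 stood apart from the others. Across the 106 genes, responses of replicate 1 correlated at 0.82 to 0.89 between strains, and at 0.09 to 0.24 with the other replicates of the same strain. Replicates 2 and 3 of a strain correlated at 0.50 to 0.86. All columns share the reference pool, and no column enters the response of more than 1 strain. Replicate 1 had 3 technical replicates, whereas replicates 2 and 3 had 2 each, made by duplicate features within a slide, and the part of this in the difference was not tested.

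At 60 min of 1 M sorbitol, nearly all measured ribosomal protein transcripts were lower in every strain. Among the 106 genes, 95 passed the test as lower in hog1del, 100 in HOG1-CCAAX and 94 in HOG1-GFP, and none passed as higher, with or without adjustment of the p-values. Of all 5443 genes tested, 27.4% were called lower in hog1del, 26.1% in HOG1-CCAAX and 22.7% in HOG1-GFP, and 25.6%, 28.1% and 24% were called higher in the same strains. The test was limma's moderated test with p-values adjusted over all 5443 genes and a threshold of 0.05. The median response of the 106 genes was −1.47 in hog1del, −1.63 in HOG1-CCAAX and −1.36 in HOG1-GFP on the log2 scale, where that of all genes was −0.01, 0.03 and −0.01. A loss of more than 2-fold that also passed the test was seen in 84, 97 and 86 of the 106 genes in these strains. Of all genes tested, 11.5%, 11.6% and 10.2% were at least 2-fold lower, whether or not they passed. The shares of all genes thus rest on a looser rule than the counts of the 106. Without replicate 3, the count of genes called lower in hog1del was 63, where 10.7% of all genes were called lower.

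The share of all genes called in a strain depended on the replicates that entered. Without replicate 1, 37.1% were called lower and 36% higher in hog1del, 34.6% and 39.5% in HOG1-CCAAX, and 33.1% and 36.2% in HOG1-GFP. Leaving out replicate 2 gave 11.4% lower and 13.1% higher in hog1del, 12.3% and 13.7% in HOG1-CCAAX, and 10.6% and 11.2% in HOG1-GFP. Leaving out replicate 3 gave 10.7% and 11.2% in hog1del, 12.4% and 14.1% in HOG1-CCAAX, and 9.9% and 9.87% in HOG1-GFP. With the replicate number as a block, the shares were 35.5% lower and 34.3% higher in hog1del, 33.6% and 35.9% in HOG1-CCAAX, and 32.6% and 33.5% in HOG1-GFP.

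**Figure D1:**
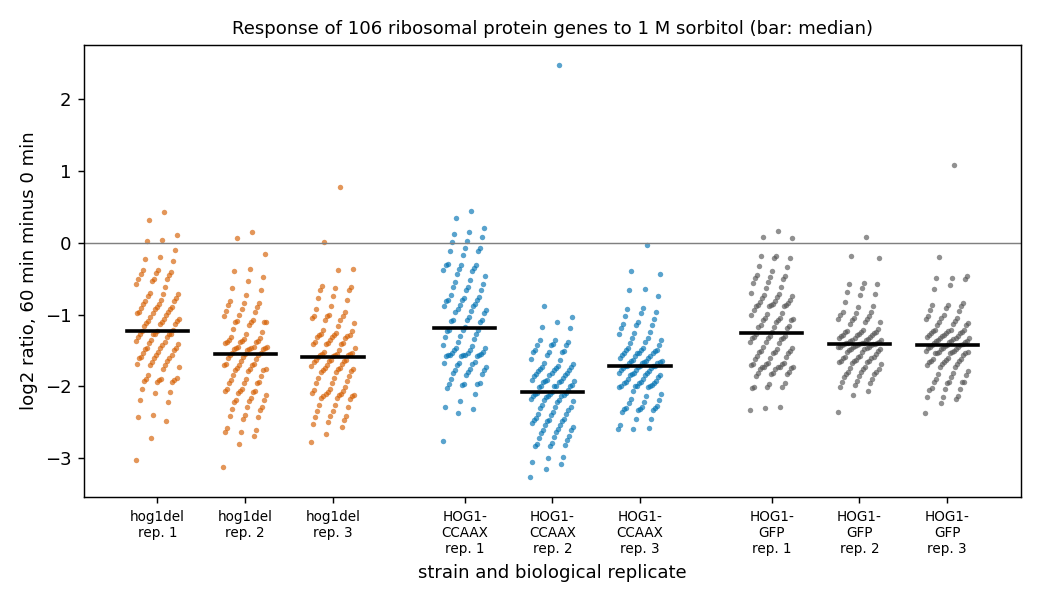
Response (log2 ratio at 60 min minus 0 min, vertical axis) of the 106 ribosomal protein genes in each strain and biological replicate (horizontal axis). Each point is a gene and each bar the median of a column. Medians lie between −2.08 (HOG1-CCAAX replicate 2) and −1.19 (HOG1-CCAAX replicate 1), and the single point at 2.48 in HOG1-CCAAX replicate 2 is RPL41A.

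The column medians were −1.23, −1.55 and −1.58 in hog1del replicates 1, 2 and 3. They were −1.19, −2.08 and −1.72 in HOG1-CCAAX and −1.25, −1.41 and −1.42 in HOG1-GFP. The plot of responses by column shows that the strains lay close together in replicate 1 and that HOG1-CCAAX was lowest in replicates 2 and 3. Between 98 and 106 of the 106 genes were below 0 in each column.

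Both subunits took part. Of the 63 genes of the large subunit, 55 were called lower in hog1del, 60 in HOG1-CCAAX and 55 in HOG1-GFP, with medians of −1.50, −1.69 and −1.41 in these strains. Of the 40 genes of the small subunit, 37 were called lower in hog1del, 37 in HOG1-CCAAX and 36 in HOG1-GFP, with medians of −1.38, −1.52 and −1.26. By copy, 41 of 46 A genes were called in hog1del, 43 in HOG1-CCAAX and 39 in HOG1-GFP. Of the 48 B genes, 43, 46 and 44 were called in these strains, and 11 of 12 single-copy genes were called in each. Without replicate 3, 38 large-subunit, 23 small-subunit, 30 A, 27 B and 6 single-copy genes were called lower in hog1del. In HOG1-CCAAX there were 44, 30, 36, 34 and 7 in the same order, and in HOG1-GFP 40, 24, 30, 28 and 7. Without replicate 2 there were 44, 26, 36, 29 and 8 in hog1del and 44, 28, 35, 33 and 7 in HOG1-CCAAX. HOG1-GFP then had 43, 24, 31, 30 and 8. Of all genes, 10.7%, 12.4% and 9.9% were called lower without replicate 3 in hog1del, HOG1-CCAAX and HOG1-GFP. Without replicate 2 the shares were 11.4%, 12.3% and 10.6%. The responses of A genes were more spread out than those of B genes, with an SD over genes of 0.50 for A and 0.30 for B when averaged over strains. The A set includes RPL41A, whose replicates ran in opposite directions, whereas RPL41B lacked values and is not in the B set. The A and B sets are thus not made of the same pairs, and the difference between these spreads was not tested.

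Averaged over strains, the lowest response belonged to RPL20A, which encodes a protein of the large subunit. RPL20A changed by −3.02, −2.31 and −2.56 in the hog1del replicates, by −2.37, −2.82 and −2.58 in HOG1-CCAAX and by −2.29, −2.00 and −2.23 in HOG1-GFP. Its transcript was thus 6.20-fold, 6.02-fold and 4.52-fold lower (adjusted p = 7.7e-06, 4.9e-06 and 1.4e-05, limma), and no value of any strain came near 0. Its paralogue RPL20B was among the 4 lowest genes as well, with means of −2.25 ± 0.16 in hog1del, −2.44 ± 0.34 in HOG1-CCAAX and −1.87 ± 0.12 in HOG1-GFP (SD, n = 3 each).

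RPS22A, of the small subunit, was also among the 4 lowest genes. The level of RPS22A in hog1del was −1.02, −2.57 and −2.23 at 60 min, against 1.69, −0.15 and 0.11 at 0 min. In HOG1-CCAAX it was −1.36, −3.21 and −2.38 at 60 min, against 1.40, 0.05 and −0.39 at 0 min. In HOG1-GFP it was −0.79, −2.08 and −2.04 at 60 min, against 1.53, −0.28 and −0.01 at 0 min. The level at 60 min lay below that at 0 min by at least 1.80 in every replicate, while replicate 1 was above the others at both times.

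At the other end, 6 genes passed the test in no strain: RPL41A, RPS30A, RPL28, RPL43B, RPS27B and RPS21A. RPL41A encodes the very short peptide of the large subunit that lies at the contact between subunits. Its response was 0.11, −0.16 and 0.77 in hog1del, −0.07, 2.48 and −1.93 in HOG1-CCAAX, and −0.19, 0.08 and 1.08 in HOG1-GFP. The HOG1-CCAAX replicates thus ran in opposite directions, and the sign of the mean turned in each strain when 1 replicate was left out. RPL41B, its paralogue, was measured in 11 columns only, and in HOG1-CCAAX replicate 2 it also had a high response, of 2.58.

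RPS30A, for a small protein of the small subunit, had means of −0.51 ± 0.41 in hog1del, −0.37 ± 0.64 in HOG1-CCAAX and −0.29 ± 0.17 in HOG1-GFP (SD, n = 3 each). With the replicate number as a block it passed in hog1del (adjusted p = 0.0173) and in neither other strain. RPL28, a single-copy gene of the large subunit known for mutations that give resistance to cycloheximide, had means of −0.35 ± 0.69, −0.60 ± 0.47 and −0.56 ± 0.04 in the same order of strains. With the block it passed in HOG1-CCAAX (adjusted p = 0.00461) and in HOG1-GFP (0.00767). RPS20, a single-copy gene of the small subunit, was the shallowest gene that passed in all 3 strains, with −0.60 ± 0.15 in hog1del, −0.79 ± 0.50 in HOG1-CCAAX and −0.69 ± 0.16 in HOG1-GFP.

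RPL43B, RPS27B and RPS21A missed the test with values that were split between replicates. RPL43B of the large subunit had responses of 0.03, −3.13 and −2.41 in hog1del, −0.11, −3.15 and −2.28 in HOG1-CCAAX and 0.08, −1.86 and −2.37 in HOG1-GFP. It was near 0 in replicate 1 and far below it in replicates 2 and 3. RPS27B of the small subunit followed the same pattern, with 0.32, −2.61 and −2.43 in hog1del, 0.15, −2.74 and −1.83 in HOG1-CCAAX and 0.08, −1.45 and −2.13 in HOG1-GFP. RPS21A, also of the small subunit, lay between −0.18 and 0.44 in replicate 1 and between −3.07 and −1.58 in the others. All 3 genes passed in every strain with the replicate number as a block, with adjusted p between 3.5e-06 and 0.00140. In all, 7 genes stayed above −0.5 in the 3 strains of replicate 1, of which 5 were below −1 in all 6 values of replicates 2 and 3 (RPL19A, RPS19A and these 3).

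**Figure D2:**
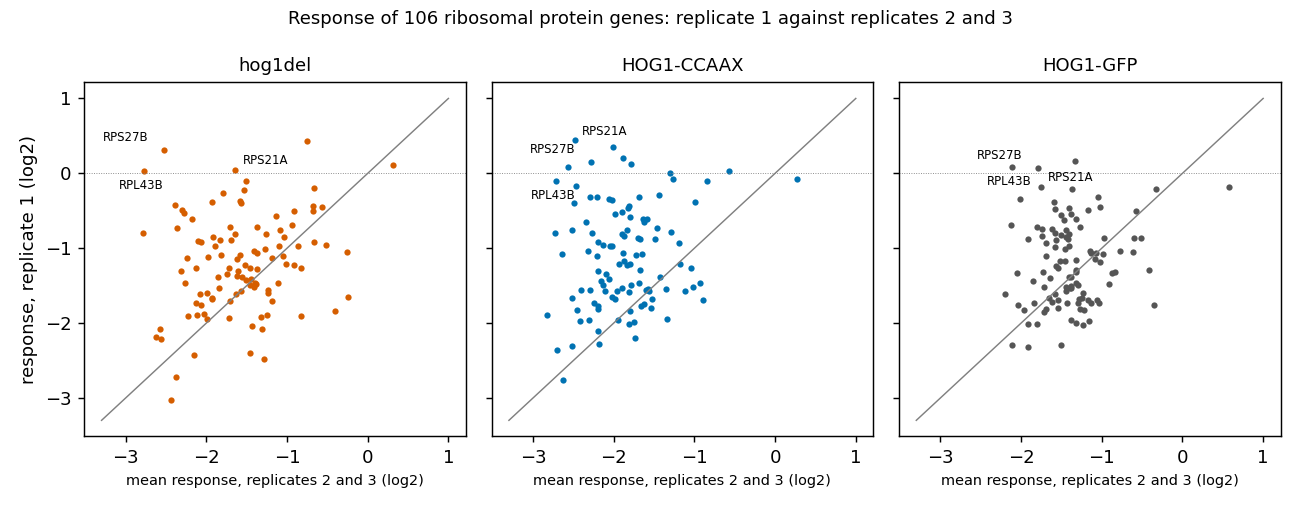
Response of the 106 genes in replicate 1 (vertical axis, log2) against the mean of replicates 2 and 3 (horizontal axis, log2) in each strain, with the line of equality. RPL43B, RPS27B and RPS21A lie near 0 in replicate 1 and well to the left of 0 in the mean of replicates 2 and 3, where their single values lie between −3.15 and −1.45.

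The stalk of the large subunit, which recruits the GTPases of translation, was lower as well. RPP1A changed by −1.84 ± 0.50 in hog1del, −1.85 ± 0.49 in HOG1-CCAAX and −1.33 ± 0.51 in HOG1-GFP, RPP1B by −1.42 ± 0.18, −1.41 ± 0.10 and −1.38 ± 0.02, and RPP2B by −0.90 ± 0.07, −1.13 ± 0.31 and −1.09 ± 0.54 (SD, n = 3 each). All 3 passed in every strain, and 1 of them passed in HOG1-GFP without replicate 3. RPP0, the scaffold that the P1 and P2 proteins bind, was valued in replicates 2 and 3 only and was shallower, at −0.43 and −0.53 in hog1del, −0.83 and −0.99 in HOG1-CCAAX, and −0.78 and −0.81 in HOG1-GFP.

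Genes without all values were tested in a fit of the 5999 genes that had at least 2 replicates per strain. Counting them, 122 of 135 ribosomal protein genes were called lower in hog1del, 129 in HOG1-CCAAX and 122 in HOG1-GFP, where 27.5%, 26.3% and 22.8% of the 5999 genes were called lower. RPS26B had the lowest mean of the genes without all values in HOG1-CCAAX and HOG1-GFP, and RPL17A had it in hog1del. RPS26B encodes a small-subunit protein at the mRNA exit channel that is known to be released from ribosomes when yeast meets high salt. RPS26B changed by −2.35 and −2.83 in hog1del, by −3.54 and −3.19 in HOG1-CCAAX and by −2.37 and −2.56 in HOG1-GFP. RPL10, whose protein joins the large subunit last, in the cytoplasm, was among the shallowest at −0.25 and −0.08 in hog1del, −0.60 and −0.38 in HOG1-CCAAX, and −0.57 and −0.45 in HOG1-GFP. Its values passed in HOG1-CCAAX (adjusted p = 0.0371) and in HOG1-GFP (0.0377), and not in hog1del (0.396).

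The response of A and B copies was then compared within each strain and replicate, as A minus B. A negative value means that the A transcript was the lower. Probes for near-identical paralogues may bind the transcript of either copy, and the probe sequences are not in the tables used here. A gap between copies therefore may be smaller on the array than in the cell, and a small gap does not show that the copies act alike. Averaged over strains, the gap passed the test in 14 of 39 pairs, with A lower in 10 and B lower in 4. This is 35.9% of the pairs, where 74.3% of all 14810403 pairs of tested genes passed, and 45.1% of the 5526 other pairs of ribosomal protein genes. The median size of the gap was 0.25 for A and B copies, 0.36 for the other pairs of ribosomal protein genes and 0.77 for all gene pairs.

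**Figure D3:**
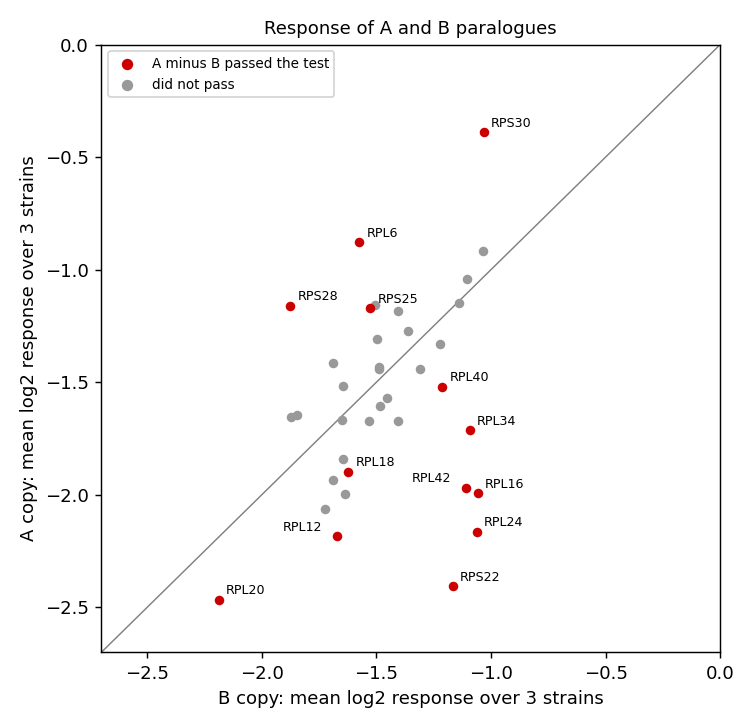
Mean response over the 3 strains of the A copy (vertical axis, log2) against the B copy (horizontal axis, log2) for A and B pairs, with the line of equality. The pairs shown that passed the test are named. RPS22, RPL24 and RPL16 lie farthest below the line, and RPS28, RPL6 and RPS30 farthest above it.

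In 6 of the 14 pairs that passed, all 9 values had the same sign. The largest gap was that of RPS22. A minus B of RPS22 was −1.50, −1.32 and −1.42 in the hog1del replicates, so that RPS22A fell more than RPS22B. It was −1.22, −1.58 and −0.97 in HOG1-CCAAX and −0.997, −1.12 and −1.03 in HOG1-GFP. The mean gap was −1.24 ± 0.10 (SE, adjusted p = 2.8e-06 over all gene pairs), or 2.36-fold. Replicate 1 gave −1.24 and replicates 2 and 3 together −1.24, so this pair does not share the split between replicates.

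RPL24 encodes a protein that forms a bridge to the small subunit. A minus B was −0.84, −2.14 and −1.56 in hog1del, −0.33, −1.08 and −1.46 in HOG1-CCAAX and −0.27, −0.96 and −1.29 in HOG1-GFP. The mean gap of RPL24 was −1.10 ± 0.18 (SE, adjusted p = 2.9e-04). The A copy fell more in all 9 values, and the gap was smaller in replicate 1 than in the others in each strain. RPL42, for a large-subunit protein near the tRNA exit site, had a gap of −0.86 ± 0.16 (SE, adjusted p = 6.5e-04) that was larger in replicate 1, at −1.41, than in replicates 2 and 3, at −0.58. RPL34 had a gap of −0.62 ± 0.09 (SE, adjusted p = 1.8e-04) with values between −1.12 and −0.33.

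RPS28 and RPS30 of the small subunit ran the other way, with the B copy lower. For RPS28, A minus B was 0.26, 0.97 and 1.08 in hog1del, 0.59, 0.46 and 1.90 in HOG1-CCAAX and 0.34, 0.42 and 0.42 in HOG1-GFP. The mean gap was 0.72 ± 0.16 (SE, adjusted p = 0.00282). RPS30 had a gap of 0.64 ± 0.16 (SE, adjusted p = 0.00406). RPS30B changed by −1.28 ± 0.22 in hog1del, −0.87 ± 0.76 in HOG1-CCAAX and −0.94 ± 0.45 in HOG1-GFP (SD, n = 3 each), and it passed in all 3 strains, whereas RPS30A passed in none.

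**Figure D4:**
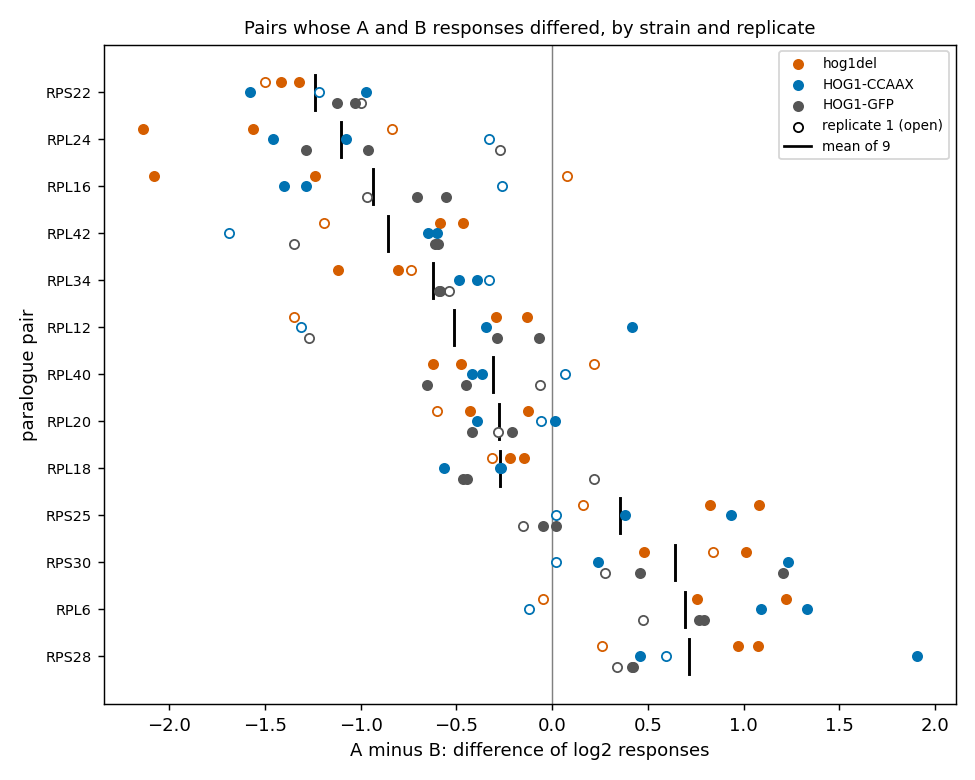
Difference of log2 responses, A minus B (horizontal axis), of pairs that passed, in each strain (colour) and replicate (open circles for replicate 1), with the mean of the 9 values as a bar. All 9 values of RPS22, RPL24, RPL42 and RPL34 are below 0 and all 9 of RPS28 and RPS30 are above 0, whereas RPL16, RPL12, RPL40, RPL20, RPL18, RPS25 and RPL6 cross it.

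The number of pairs that passed depended on single replicates. Leaving out replicate 1 gave 23 pairs (85% of all gene pairs passed), leaving out replicate 2 gave 6 (57.3%) and leaving out replicate 3 gave 7 (56%). RPS22, RPL24, RPL42, RPL34 and RPS28 passed in each of these fits, and 13 of the 14 pairs passed without replicate 1. The exception was RPL12, for a protein at the base of the stalk. RPL12 had a gap of −1.35 in hog1del, −1.31 in HOG1-CCAAX and −1.27 in HOG1-GFP in replicate 1, and of −0.12 over replicates 2 and 3.

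Several pairs turned with the replicate. The sign was opposite in all 3 values of replicate 1 and all 6 values of replicates 2 and 3 in 4 pairs, among them RPL9, RPL14 and RPS27. RPS27 had a mean of −1.03 in replicate 1 and 0.85 in replicates 2 and 3. RPL43 had −1.04 and 0.93, and RPL19 had 1.29 and −0.12. RPL14 was therefore also among the 4 pairs with the smallest gap over all 9 values, at 0.06, since its means of −0.37 in replicate 1 and 0.27 in replicates 2 and 3 nearly cancelled. The others were RPL7 at 0.04, RPL1 at −0.02 and RPS9 at −0.01.

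Of the pairs that lacked values in replicate 1, 3 had gaps near −1 in replicates 2 and 3. RPL17A fell more than RPL17B (A minus B, −1.05), RPL36A more than RPL36B (−1.06) and RPL22A more than RPL22B (−1.04), with all 6 values below 0 in each. RPS26 ran the other way, at 0.90, with RPS26B the lower, as did RPS18 at 0.61. The gap of RPS0 was −0.02. Over all genes valued in replicates 2 and 3, a fit chosen after seeing the data, 32 of 55 pairs passed, where 84.7% of 16493896 gene pairs did. These pairs were named after their values were seen.

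Strains were compared next, as the difference of their responses. This asks whether loss of Hog1, or its attachment to membranes, altered the loss of ribosomal protein transcripts. The limma fit without the replicate block, which leaves any pairing of replicates unused, called no ribosomal protein gene in any of the 3 comparisons. Of all genes, it called 2.57% for hog1del minus HOG1-GFP, 0.331% for HOG1-CCAAX minus HOG1-GFP and 0.129% for HOG1-CCAAX minus hog1del. At an unadjusted p under 0.05 there were 4, 6 and 5 of the 106 genes, where 15.8%, 7.64% and 7.83% of all genes were under it. The median difference was −0.14 for hog1del minus HOG1-GFP, −0.29 for HOG1-CCAAX minus HOG1-GFP and −0.16 for HOG1-CCAAX minus hog1del. The differences were below 0 in 73, 99 and 78 of the 106 genes, and these comparisons share strains with each other. The share of all genes below 0 is not given here. Without replicate 1, the median difference was −0.19, −0.45 and −0.26 for the 106 genes, and −0.05, 0.01 and 0.05 for all genes. Across the 106 genes, mean responses correlated at 0.80 between hog1del and HOG1-GFP, 0.89 between HOG1-CCAAX and HOG1-GFP and 0.85 between HOG1-CCAAX and hog1del.

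With the replicate number as a block, 2 genes passed for hog1del minus HOG1-GFP (RPL37A and RPS9A, where 14.8% of all genes passed) and 1 for HOG1-CCAAX minus HOG1-GFP (RPS28B, where 3.38% passed). Without replicate 1, more genes passed in each comparison. For HOG1-CCAAX minus HOG1-GFP there were 21, all lower in HOG1-CCAAX, which is 19.8% of the 106 genes, where 3.99% of all genes passed as lower and 8.95% in either direction. For HOG1-CCAAX minus hog1del there were 10, all lower, or 9.43%, where 4.15% of all genes passed as lower and 9.19% either way. For hog1del minus HOG1-GFP there were 13, of which 10 were lower and 3 higher, or 12.3%, where 21.3% of all genes passed and 11.6% passed as lower. These fits rest on 2 replicates per strain. In replicate 1 the medians of the strains did not show the order seen in the others, at −1.19 in HOG1-CCAAX and −1.25 in HOG1-GFP.

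The largest single differences were these. RPS9A, for a small-subunit protein at the mRNA entry channel, changed by −0.98, −2.06 and −1.74 in hog1del, against −0.87, −0.57 and −0.47 in HOG1-GFP. The difference was −0.96 (95% interval −1.66 to −0.26, adjusted p = 0.157), and it was −1.38 without replicate 1 (adjusted p = 6.8e-04). The groups did not overlap, although the strains were close to each other in replicate 1. RPL37A changed by −2.19, −2.58 and −2.66 in hog1del, against −1.51, −1.94 and −1.50 in HOG1-GFP. Its groups did not overlap, and the difference was −0.82 (95% interval −1.31 to −0.34, adjusted p = 0.0820, and 0.00839 with the block).

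For HOG1-CCAAX minus HOG1-GFP the largest were RPS10A and RPL27B. RPS10A, of the small subunit, changed by −1.97, −2.83 and −2.00 in HOG1-CCAAX, against −1.68, −1.10 and −1.45 in HOG1-GFP, without overlap, a difference of −0.85 (95% interval −1.46 to −0.25, adjusted p = 0.366). Without replicate 1 it was −1.14 (adjusted p = 0.0309). RPL27B, of the large subunit, changed by −0.80, −2.99 and −2.46 in HOG1-CCAAX, against −0.88, −1.46 and −1.66 in HOG1-GFP. Its difference was −0.75 (95% interval −2.20 to 0.71, adjusted p = 0.963), and −1.16 without replicate 1 (adjusted p = 0.00870). For RPL27B the strains were close in replicate 1 and apart in the others.

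For HOG1-CCAAX minus hog1del the largest were RPL24B and RPL31B, both of the large subunit. RPL24B had responses of −1.57, −1.98 and −1.14 in HOG1-CCAAX, against −1.06, 0.07 and −0.60 in hog1del. The groups did not overlap, and the difference was −1.04 (95% interval −1.77 to −0.30, adjusted p = 0.450), or −1.30 without replicate 1 (adjusted p = 0.0285). RPL24B did not pass in hog1del without the block (adjusted p = 0.0810, and 0.0244 with it), and it passed in HOG1-CCAAX (4.6e-04). RPL31B, whose protein lies near the exit of the peptide tunnel, had responses of −0.31, −2.46 and −2.14 in HOG1-CCAAX, against −0.51, −0.53 and −1.29 in hog1del. Its difference was −0.86 (95% interval −2.02 to 0.30, adjusted p = 0.745) with overlapping groups, and −1.39 without replicate 1 (adjusted p = 0.0111).

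The gap between A and B was also compared between strains. In the fit without the block, which leaves any pairing of replicates unused, no pair of the 39 passed in any comparison. Of all gene pairs, 3.05% passed for hog1del minus HOG1-GFP, 0.26% for HOG1-CCAAX minus HOG1-GFP and 0% for HOG1-CCAAX minus hog1del. At an unadjusted p under 0.05 there were 2, 0 and 1 of the 39 pairs in these limma fits. The share of all gene pairs under that threshold is not given, so these counts have no background to be read against. With the replicate number as a block, 3 pairs passed for hog1del minus HOG1-GFP (18.7% of all gene pairs), and without replicate 1 there were 5 (23.9%). For HOG1-CCAAX minus hog1del there was 1 pair without replicate 1 (RPS9, 10.2% of all gene pairs).

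RPS9 had the largest difference. A minus B was −0.41, −1.05 and −0.46 in hog1del, 0.37 and 0.30 in HOG1-CCAAX replicates 2 and 3 and −0.15 in its replicate 1, and 0.20, 0.67 and 0.44 in HOG1-GFP. The A copy was thus the lower in every hog1del replicate and the B copy in every HOG1-GFP replicate. The difference for hog1del minus HOG1-GFP was −1.07 (adjusted p = 0.0809), with an adjusted p of 0.0145 under the block and of 0.00631 when replicate 1 was left out. RPS9B changed by −0.95 ± 0.36 in hog1del, −1.39 ± 0.71 in HOG1-CCAAX and −1.07 ± 0.17 in HOG1-GFP (SD, n = 3 each).

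RPS7 and RPS25 also passed with the block. A minus B of RPS7 was −1.40, −0.50 and 0.20 in hog1del, against −0.60, 1.06 and 0.86 in HOG1-GFP, a difference of −1.01 (adjusted p = 0.435, and 0.0145 with the block). In RPS7 the hog1del value was the lower in each replicate, although the values of the strains overlapped. A minus B of RPS25, a protein needed for initiation at some internal entry sites, was 0.16, 0.82 and 1.08 in hog1del, against −0.15, −0.05 and 0.02 in HOG1-GFP. The groups did not overlap, and the difference was 0.75 (adjusted p = 0.273, and 0.0424 with the block). RPL37 had a difference of −0.74 (adjusted p = 0.606, and 0.0576 with the block).

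**Figure D5:**
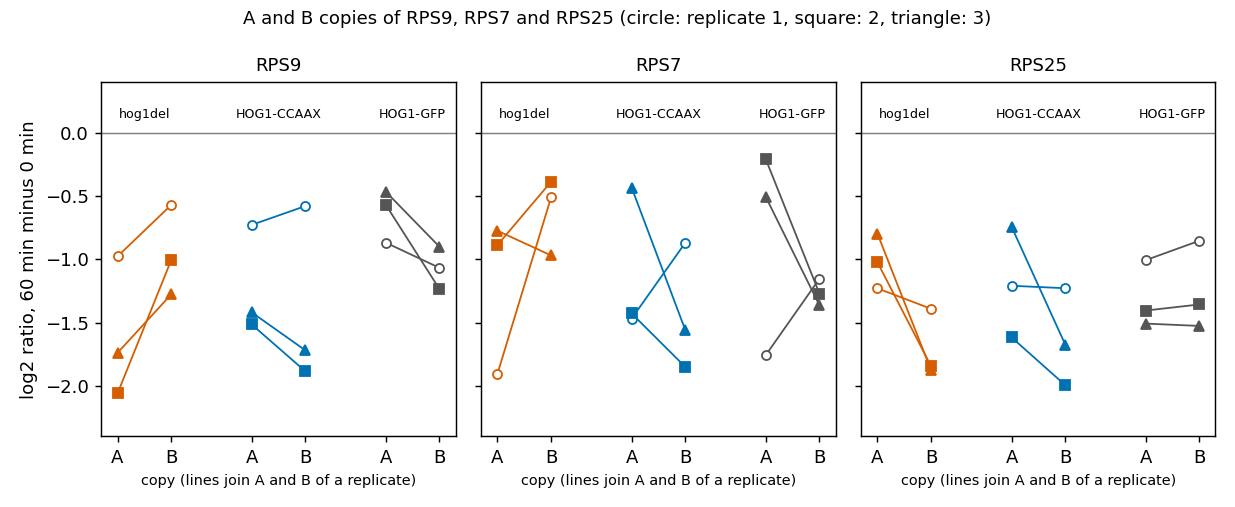
Response (vertical axis, log2 ratio at 60 min minus 0 min) of the A and B copies of RPS9, RPS7 and RPS25 in each strain, with a line for each replicate (circles, squares and triangles for replicates 1, 2 and 3). In RPS9 the lines rise from A to B in hog1del and descend in HOG1-GFP, where A minus B averaged −0.64 and 0.43.

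Before the shock, levels of the 106 genes did not pass in any comparison of strains with limma, with the replicate number as a block. Of all genes, 0.937% passed for hog1del minus HOG1-GFP, 0.276% for HOG1-CCAAX minus HOG1-GFP and 0.276% for HOG1-CCAAX minus hog1del. At an unadjusted p under 0.05 there were 2, 7 and 28 of the 106 genes, where 10.9%, 8.58% and 12.1% of all genes were under it. Without the block there were 0, 1 and 3, where 1.87%, 1.07% and 1.73% of all genes were. The median difference was 0.06, −0.09 and −0.15 in the same order, and 31, 81 and 87 of the 106 genes were below 0. The median and the share below 0 of all genes at 0 min are not given here.

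RPL41A had the largest differences against HOG1-GFP at 0 min, with levels of 1.20, −1.37 and −0.13 in hog1del, 0.94, −1.75 and 0.20 in HOG1-CCAAX, and 1.10, 0.80 and −0.11 in HOG1-GFP. The differences were −0.70 for hog1del (adjusted p = 0.595) and −0.80 for HOG1-CCAAX (0.639), and replicate 2 set their sign. RPL39, which lines the exit tunnel, had levels of 1.00, 0.22 and 0.45 in HOG1-CCAAX, 1.20, 1.18 and 1.02 in hog1del and 1.07, 0.99 and 1.00 in HOG1-GFP. It was lower in HOG1-CCAAX than in hog1del by 0.57 (HOG1-CCAAX minus hog1del, −0.57, adjusted p = 0.154) and than in HOG1-GFP (−0.46, adjusted p = 0.300). In replicates 2 and 3 the HOG1-CCAAX levels of RPL39 lay below all others. In replicate 1 the HOG1-CCAAX level was also the lowest of the 3 strains, although it lay within the range of HOG1-GFP over all replicates. RPS30B was next, with −0.57 for HOG1-CCAAX minus hog1del (adjusted p = 0.213).

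Genes listed as regulators of ribosomal protein promoters, some of which act indirectly or on ribosome biogenesis genes, were called in both directions. Of 18 such regulators, all tested, 5 were called higher and 8 lower in hog1del, 3 and 5 in HOG1-CCAAX, and 5 and 5 in HOG1-GFP. That is 27.8% and 44.4% in hog1del, 16.7% and 27.8% in HOG1-CCAAX, and 27.8% each way in HOG1-GFP, where 25.6% and 27.4%, 28.1% and 26.1%, and 24% and 22.7% of all genes were called higher and lower in these strains. With the replicate number as a block, 6 were called higher and 8 lower in hog1del, 5 and 7 in HOG1-CCAAX, and 6 and 9 in HOG1-GFP. Without replicate 1 there were 6 and 9, 5 and 7, and 5 and 8 in the same order, and without replicate 2 or 3 at most 2 were called in either direction in any strain. YAK1, the kinase that activates the corepressor Crf1, rose in all strains, by 1.17 ± 0.43 in hog1del, 1.72 ± 0.71 in HOG1-CCAAX and 0.74 ± 0.32 in HOG1-GFP (SD, n = 3 each). CRF1, for that corepressor, had responses of 0.08, 2.19 and 2.21 in hog1del, −0.08, 1.91 and 1.86 in HOG1-CCAAX and 0.05, 2.14 and 2.03 in HOG1-GFP. CRF1 was near 0 in replicate 1 and high in the others, so it was split between the same replicates as RPL43B and RPS27B. It passed in hog1del (adjusted p = 0.0458) and not in HOG1-CCAAX (0.0875) or HOG1-GFP (0.0628) without the block, and in all strains with it (at most 9.6e-07). UTP22, whose protein binds Ifh1 in a complex that links ribosomal RNA processing to these promoters, fell in all strains, by −1.14 ± 0.68 in hog1del, −1.24 ± 0.69 in HOG1-CCAAX and −0.93 ± 0.37 in HOG1-GFP. TOD6, a repressor of ribosome biogenesis genes, had means of −1.16 ± 1.15, −0.95 ± 0.64 and −1.09 ± 0.60 in these strains and passed in hog1del and HOG1-GFP, and in HOG1-CCAAX with the block only (adjusted p = 2.8e-04).

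Dedicated chaperones of ribosomal proteins and ribosome-bound factors were lower as well. Of 18 listed, 15 were tested, and 14 (93.3%) were called lower in each strain and none higher. Of all genes, 27.4% were called lower in hog1del, 26.1% in HOG1-CCAAX and 22.7% in HOG1-GFP. The medians of the list were −0.87, −1.25 and −1.24 in these strains. Without replicate 3, 9, 14 and 12 were called lower, where 10.7%, 12.4% and 9.9% of all genes were. Without replicate 2 there were 11, 14 and 14, where 11.4%, 12.3% and 10.6% of all genes were called lower. With all replicates, the exception in each strain was BCP1, which escorts Rpl23. SYO1, the import adaptor for Rpl5 and Rpl11, was the lowest, at −3.13 ± 0.90 in hog1del, −3.39 ± 0.91 in HOG1-CCAAX and −2.34 ± 0.41 in HOG1-GFP (SD, n = 3 each). Its client RPL5 was much shallower, at −1.44 ± 0.08, −1.59 ± 0.05 and −1.32 ± 0.12. KAP123, an importin that carries ribosomal proteins into the nucleus, changed by −1.93 ± 0.59, −2.50 ± 0.51 and −2.29 ± 0.32. RRB1, the chaperone of Rpl3, changed by −1.92 ± 0.59, −2.42 ± 0.59 and −2.14 ± 0.14, and RPL3 itself by −0.98 ± 0.24, −1.46 ± 0.37 and −1.42 ± 0.36. PUF6, which helps Rpl43 to assemble, changed by −1.94 ± 0.77, −2.42 ± 0.81 and −1.95 ± 0.28.

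The proteins of the mitochondrial ribosome come mostly from other nuclear genes, and 62 of these genes were tested. Of these, 30 were called lower and 7 higher in hog1del (48.4% and 11.3%). There were 29 and 5 in HOG1-CCAAX (46.8% and 8.06%) and 24 and 4 in HOG1-GFP (38.7% and 6.45%). Of all genes, 27.4% were called lower and 25.6% higher in hog1del, 26.1% and 28.1% in HOG1-CCAAX, and 22.7% and 24% in HOG1-GFP. The shares of all genes with the block and without each replicate, given above, also moved between fits. With the block there were 36 and 9 in hog1del, 37 and 9 in HOG1-CCAAX, and 35 and 7 in HOG1-GFP. Leaving out replicate 1 gave 34 and 13, 34 and 11, and 26 and 7 in these strains, and leaving out replicate 2 gave 12 and 2, 13 and 2, and 11 and 1. Without replicate 3 there were 16 and 2 in both hog1del and HOG1-CCAAX, and 11 and 1 in HOG1-GFP. Their medians were −0.39, −0.40 and −0.35 in these strains, against −1.47, −1.63 and −1.36 for the cytosolic ribosome.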

How the data were processed

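Total RNA of 42 samples was amplified and hybridised on 2-colour arrays against a common reference pool, with the sample in Cy3 and the pool in Cy5, per the labels' protocols. The deposited tables hold log2 ratios, which the authors averaged over 3 technical replicates in replicate 1 and over 2 in replicates 2 and 3 (duplicate features within a slide, deposited as separate samples), per the labels and the design text. For background correction, scaling and spot filters, the method is not given in the sources used here. The deposited sign, pool over sample, was turned, so a higher value stands for more transcript in the sample. Responses formed from these levels equalled the deposited log2 fold changes to within 5.0e-07.

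Each table had 8635 rows, 6278 of them open reading frames, of which 5804 matched a RefSeq locus tag and 5443 had all 18 values. These were tested with limma 3.58.1 in R 4.3.3 (lmFit and eBayes, two-sided), with strain as the only term for responses and with the replicate number as a block for levels at 0 min. P-values were adjusted by Benjamini and Hochberg over all tested genes, or over all pairs of tested genes for A minus B, with a threshold of 0.05. The array number limits the precision. What the biological replicates are is not given, so p-values measure the spread between these samples.

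Replicate numbers were taken to pair the samples. Deviations from the mean of a strain correlated at 0.44 to 0.82 (responses) and 0.74 to 0.91 (0 min) between same-numbered samples. Those of unequal number reached 0.61 and 0.81. A replicate 1 that stands apart gives such values without pairing, so they do not show it. For responses in replicates 2 and 3, HOG1-CCAAX with HOG1-GFP gave 0.44 and 0.45 for equal numbers, and 0.61 and 0.61 for unequal ones. These were 0.54 and 0.54 against 0.54 and 0.47 for hog1del with HOG1-GFP. HOG1-CCAAX with hog1del gave 0.51 and 0.70 against 0.46 and 0.58. Scripts were tested on simulated data. Members, lists and tests were chosen with earlier results of these data known. The text names the 4 lowest and 4 highest genes, those called in no strain, the largest strain differences, the pairs with the largest and smallest gaps, and the 4 largest changes of each list. Results of some genes and pairs that this rule picks are not reported here. Stalk genes, genes without all values, clients of chaperones and pairs split between replicates were named in addition, after their values were seen. Alternatives were the block, median centring, quantile normalization, genes with at least 2 replicates, and leaving out each replicate. For subsets and lists, the last of these and the block were added after seeing the data. Array probe sequences were not used here.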

Additional observations from a re-analysis of the deposited data

Results flagged for a closer look

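The A minus B response of RPS9 had opposite signs in every replicate of hog1del and HOG1-GFP. It averaged −0.64 ± 0.36 in hog1del and 0.43 ± 0.23 in HOG1-GFP (SD, n = 3 each), a difference of −1.07. The adjusted p of the difference was 0.0809 over all gene pairs with limma, 0.0145 with the replicate number as a block and 0.00631 without replicate 1.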

How the results depend on the processing

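The count of genes called lower in hog1del was 63 to 102 when replicates were left out in turn. Genes called for strain differences of response numbered 0 to 13 (hog1del minus HOG1-GFP), 0 to 21 (HOG1-CCAAX minus HOG1-GFP) and 0 to 10 (HOG1-CCAAX minus hog1del) in these fits, and 0 to 1 for HOG1-CCAAX minus hog1del at 0 min. With the replicate number as a block they were 2, 1 and 0, and with quantile normalization 1 for hog1del minus HOG1-GFP. A and B pairs that passed on average numbered 6 to 23, and 32 in replicates 2 and 3 over all genes valued in both. For pair differences of hog1del minus HOG1-GFP there were 3 with the block, 0 to 5 without a replicate and 5 in that fit, and for HOG1-CCAAX minus hog1del 0 to 1 and 1. With the block, the listed regulators of ribosomal protein promoters called higher in HOG1-CCAAX went from 16.7% to 27.8% (5 genes). Those called lower in HOG1-GFP went from 27.8% to 50% (9 genes). Mitochondrial ribosomal protein genes called higher went from 8.06% to 14.5% (9 genes) in HOG1-CCAAX and from 6.45% to 11.3% (7 genes) in HOG1-GFP. Of all genes, the share called higher also went from 28.1% to 35.9% in HOG1-CCAAX and from 24% to 33.5% in HOG1-GFP. The share called lower in HOG1-GFP went from 22.7% to 32.6%. RPL41A reversed its sign when a replicate was left out. Its mean response ranged from −0.023 (without replicate 3) to 0.44 in hog1del, from −1.003 (without replicate 2) to 1.20 in HOG1-CCAAX and from −0.052 (without replicate 3) to 0.58 in HOG1-GFP. At 0 min its difference ranged from −1.09 to 0.039 for hog1del minus HOG1-GFP and from −1.35 to 0.076 for HOG1-CCAAX minus HOG1-GFP, with the highest value of each without replicate 2. Why these values moved was not tested, and fewer samples enter each fit without a replicate. Of the values for single genes and pairs, 501 were labelled as unchanged, 53 as gaining a call and 22 as losing it. For the pairs with the smallest gaps, the label of unchanged does not ensure the same sign or call. The gap of RPS9 averaged over strains went from −0.0112 with all replicates to 0.0426 without replicate 1. RPL14 did not pass with all replicates (adjusted p = 0.728, limma) and passed without replicate 1 (0.0226). Cross-binding of paralogue probes, which may narrow the gaps between copies, was not tested.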
